A study of Rattus norvegicus with 6 samples.

Results

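MicroRNAs that act on lipid and glucose metabolism were read in the left ventricle of diabetic and non-diabetic rats. The assays were chosen by name from miR-378, miR-103, miR-107, miR-33, miR-320, miR-375 and miR-802, without the passenger-strand (star) assays. This gave 6 assays in 7 wells, of 584 miRNA assays in 734 wells. By this match of exact names no assay of miR-33 itself was found, so none was analysed here. The diabetic group was the OLETF strain, an obese, overeating Long-Evans line that develops type 2 diabetes, and the control was the related lean LETO strain. Each group had 3 left ventricles, taken from anesthetized, ventilated rats, and the labels name no drug, transgene or deletion for either group. Diabetes, obesity and strain therefore cannot be told apart, and the labels give no age. Stem-loop primers served for reverse transcription, and quantitative PCR was run on rodent miRNA cards.

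A miRNA is a short RNA that pairs with mRNAs, mainly through its seed (bases 2 to 8), and lowers their translation and stability. miR-378 and miR-33 are encoded within genes of metabolic regulators, PGC-1beta and SREBP-2. miR-33 lowers the cholesterol exporter ABCA1, and miR-378 acts on mitochondrial metabolism. miR-103 and miR-107 are encoded within pantothenate kinase genes, whose enzymes start coenzyme A synthesis, and are known to lower insulin sensitivity through caveolin-1. miR-320 is studied in the diabetic and ischaemic heart. miR-375 is the islet miRNA that restrains insulin secretion, and miR-802 is a liver miRNA raised in obese mice. In the RefSeq gene table of the rat build GRCr8, the miR-378 hairpin lies within Ppargc1b, that of miR-107 within Pank1, and the hairpins of miR-103 within Pank2 and Pank3. The table gives no exons, so their place within these genes is not stated here.

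The mature sequences of 4 members were found in RefSeq (GRCr8) and are shown for their seeds and their last bases. The seed bears on pairing with mRNAs, and the last bases bear on whether assays can be read as separate miRNAs. They are written 5′ to 3′ with the seed in capitals. The file names of the assays are old, and the 3p strand of RefSeq was taken for each.
miR-378 (rno-miR-378a-3p, chr18:57128925-57128945, minus strand): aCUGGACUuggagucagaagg
miR-103 (rno-miR-103-3p, chr3:138963278-138963300, plus strand): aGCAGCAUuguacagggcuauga
miR-107 (rno-miR-107-3p, chr1:241750431-241750453, minus strand): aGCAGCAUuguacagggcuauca
miR-375 (rno-miR-375-3p, chr9:83906591-83906612, minus strand): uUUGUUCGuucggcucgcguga
miR-103 and miR-107 had the same seed and the same base at 22 of 23 positions. Their 1 difference was G22C, counted from 1 at the 5′ end, with the base of miR-103 first. How far either assay also reads the other miRNA was not tested, so their values are not known to be separate. The seeds of miR-378 and miR-375 differed from it and from each other.

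The unit of the assay is the threshold cycle (Ct), the PCR cycle at which the product crosses a set signal. An abundant RNA crosses early, at a low Ct, and a step of 1 cycle corresponds to 1 log2 unit where each cycle doubles the product. An assay counted as measured in a sample when the mean Ct of its determined wells was below 35. Between 197 and 292 assays were measured per sample, with the highest number in LETO replicate 3. Heart muscle markers were measured in all 6 samples (7 of 7 assays, with miR-133a at a Ct of 16.6 to 17.8), as were both endothelial and both smooth muscle assays. Of the leukocyte markers, 4 of 5 were measured in every sample. The liver marker miR-122 was measured in none, and the islet marker miR-7a in 1 sample of each group. In whole tissue, fewer cells of a type and less RNA per cell cannot be told apart.

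Of the 6 metabolic assays, miR-378, miR-103 and miR-320 were measured in all 6 hearts, miR-107 in 4, miR-802 in 1 and miR-375 in none. miR-378 was the earliest of the 6. Averaged over its 2 wells, and in the order of replicates 1, 2 and 3 kept from here on, it had a Ct of 21.2, 22.6 and 19.5 in LETO and of 23.2, 22.5 and 20.8 in OLETF. It had the lowest Ct of all miRNA assays measured on its card (47 to 90 assays on card B, the second block of wells) in each of the 6 samples. Its wells differed by at most 0.191 cycles, against an SD of 0.486 cycles for a single well over 189 pairs of measured wells. The order of assays by Ct is approximate, since assays differ in amplification efficiency.

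miR-320 followed, at a Ct of 27.2, 26.7 and 25.8 in LETO and 25.8, 26.1 and 25.6 in OLETF. It stood between the 25th and the 53rd lowest Ct of the 144 to 202 assays measured on card A, the first block. miR-103 lay near the middle of that card, at 31.0, 31.3 and 28.4 in LETO and 31.3, 31.7 and 29.9 in OLETF. For miR-378, miR-103 and miR-107, LETO replicate 3 had the lowest Ct of all samples. For miR-320 it did not, and the lowest value was that of OLETF replicate 3.

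**Figure D1:**
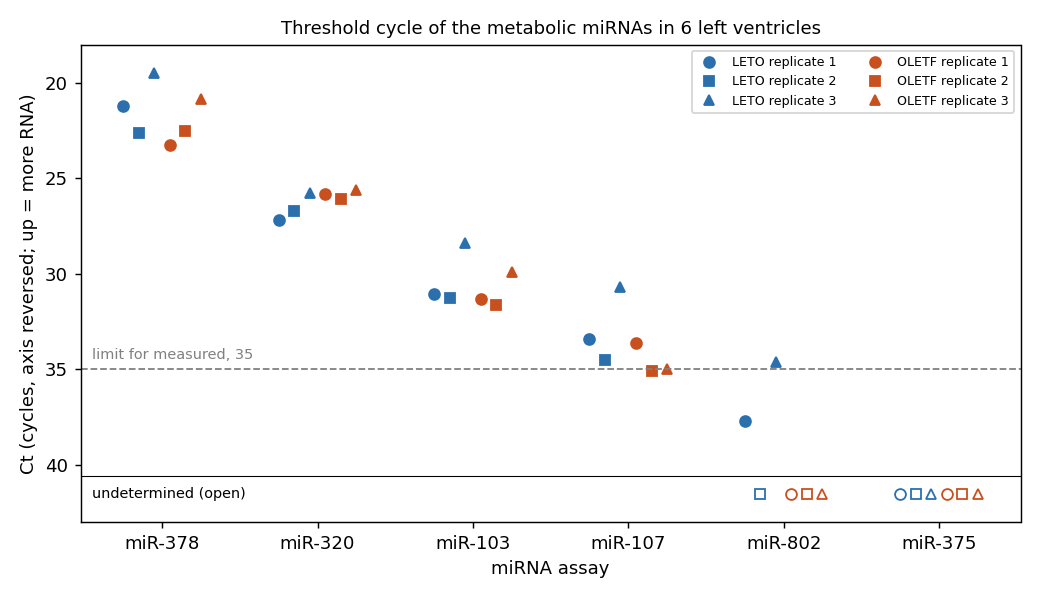
Ct of each metabolic assay (y axis, cycles, reversed so that more RNA is higher) in 3 LETO (blue) and 3 OLETF (orange) hearts. Filled symbols are determined values, open symbols in the lowest strip are undetermined wells, and the dashed line is the limit of 35. miR-378 is the earliest assay in every heart, 2 OLETF values of miR-107 touch the limit, and miR-375 is undetermined throughout.

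miR-107 lay at the limit of the assay. Its Ct was 33.4, 34.5 and 30.7 in LETO and 33.6, 35.08 and 35.005 in OLETF, so that 2 OLETF values missed the limit of 35 by less than 0.1 cycles. With 3 LETO samples and 1 OLETF sample below the limit, it could not be tested there. Its Ct exceeded that of miR-103, its near twin, by 2.37, 3.26 and 2.30 cycles in LETO and by 2.33, 3.43 and 5.13 in OLETF. The gap was widest in OLETF replicate 3, and in the other 5 samples it ran over the same range in both strains.

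miR-802 was determined in LETO replicates 1 and 3 alone, at 37.7 and 34.6, and in no OLETF sample. miR-375 had no determined well in any of the 6 hearts. The authors' deposited table nevertheless lists a ratio of OLETF over LETO of 0.841 for miR-375 and 0.142 for miR-802. That table counts an undetermined well as 40 cycles. The ratio of miR-375 equals the one obtained from the group difference in U6 Ct on card A by itself (-0.25 cycles, a ratio of 0.841), and so holds no value of miR-375.

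The labels name the small nuclear RNA U6 as endogenous control, and the level of a miRNA relative to it is the U6 Ct of the same card minus its own Ct, on the log2 scale. A second reference was the median Ct of the miRNA assays of the same card measured in all 6 samples (122 on card A, 40 on card B). The U6 Ct on card A was 19.2, 17.5 and 17.9 in LETO and 17.6, 17.9 and 18.2 in OLETF, while the card A median was 30.0, 29.5 and 26.5 in LETO and 28.9, 29.0 and 28.0 in OLETF. U6 on card B was 17.7, 16.1 and 18.0 in LETO and 17.0, 16.9 and 17.9 in OLETF, and the card B median was 29.1, 30.3 and 27.7 against 30.7, 30.0 and 28.6. The references did not move together: LETO replicate 3 had the lowest median on both cards but not the lowest U6 Ct on either.

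The comparison of OLETF with LETO asked whether any of these miRNAs differs in the diabetic heart. None passed an adjusted p of 0.05 under either reference (limma with Benjamini-Hochberg adjustment over 193 assays). The background was the same: the share of all 193 assays called was 0%, with U6 and with the card median. At an unadjusted limma p under 0.05, 2 assays were called with U6 (1.04%) and 12 with the card median (6.22%), and no member was among them. Of the 3 tested members, miR-378 and miR-103 lay lower and miR-320 higher in OLETF under both references. Their median difference was -0.97 with U6, against -0.60 over all tested assays, and -0.35 with the card median, against -0.31. With U6, limma gave nearly every assay the same SE of 1.38, drawn from all assays, so that this SE does not describe the spread of any one member.

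Relative to U6, miR-378 lay at -3.51, -6.56 and -1.50 in LETO and at -6.27, -5.67 and -2.97 in OLETF. The values spread over 5.05 log2 units, and the groups overlapped throughout. The means were -3.86 ± 2.54 and -4.97 ± 1.76 (SD, n = 3 each), a difference of -1.11 (SE 1.38, 95% interval -3.82 to 1.59, limma adjusted p = 0.997). The median difference of all card B assays with U6 was -1.12, so miR-378 moved as far as its card did. Without LETO replicate 3 the difference was 0.063.

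Relative to the card median, the same wells of miR-378 gave 7.89, 7.62 and 8.27 in LETO and 7.48, 7.49 and 7.77 in OLETF. The spread shrank to 0.794 log2 units over the 6 hearts. The means were 7.93 ± 0.32 and 7.58 ± 0.17 (SD, n = 3 each), a difference of -0.35 (SE 0.360, 95% interval -1.17 to 0.47, limma adjusted p = 0.697). OLETF was lower in 8 of 9 pairs of samples. With a Ct limit of 38, which brings later assays into the median, the difference was 0.18.

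With the other small RNA controls of the card as reference (snoRNA135, U87 and, on card A, Y1), miR-378 was 5.73, 5.73 and 5.50 in LETO and 6.11, 5.98 and 6.04 in OLETF. Every OLETF value now lay above every LETO value, as for 5.56% of the 162 assays measured in all samples. The difference was 0.39 (SE 0.445, limma adjusted p = 0.976), close to the median of 0.37 over all assays with that reference. With a Ct limit of 38 the groups overlapped under this reference, with OLETF higher in 7 of 9 pairs and a difference of 0.85 (SE 0.827). The direction for miR-378, which had the lowest Ct of the 6 member assays, thus depended on the reference.

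**Figure D2:**
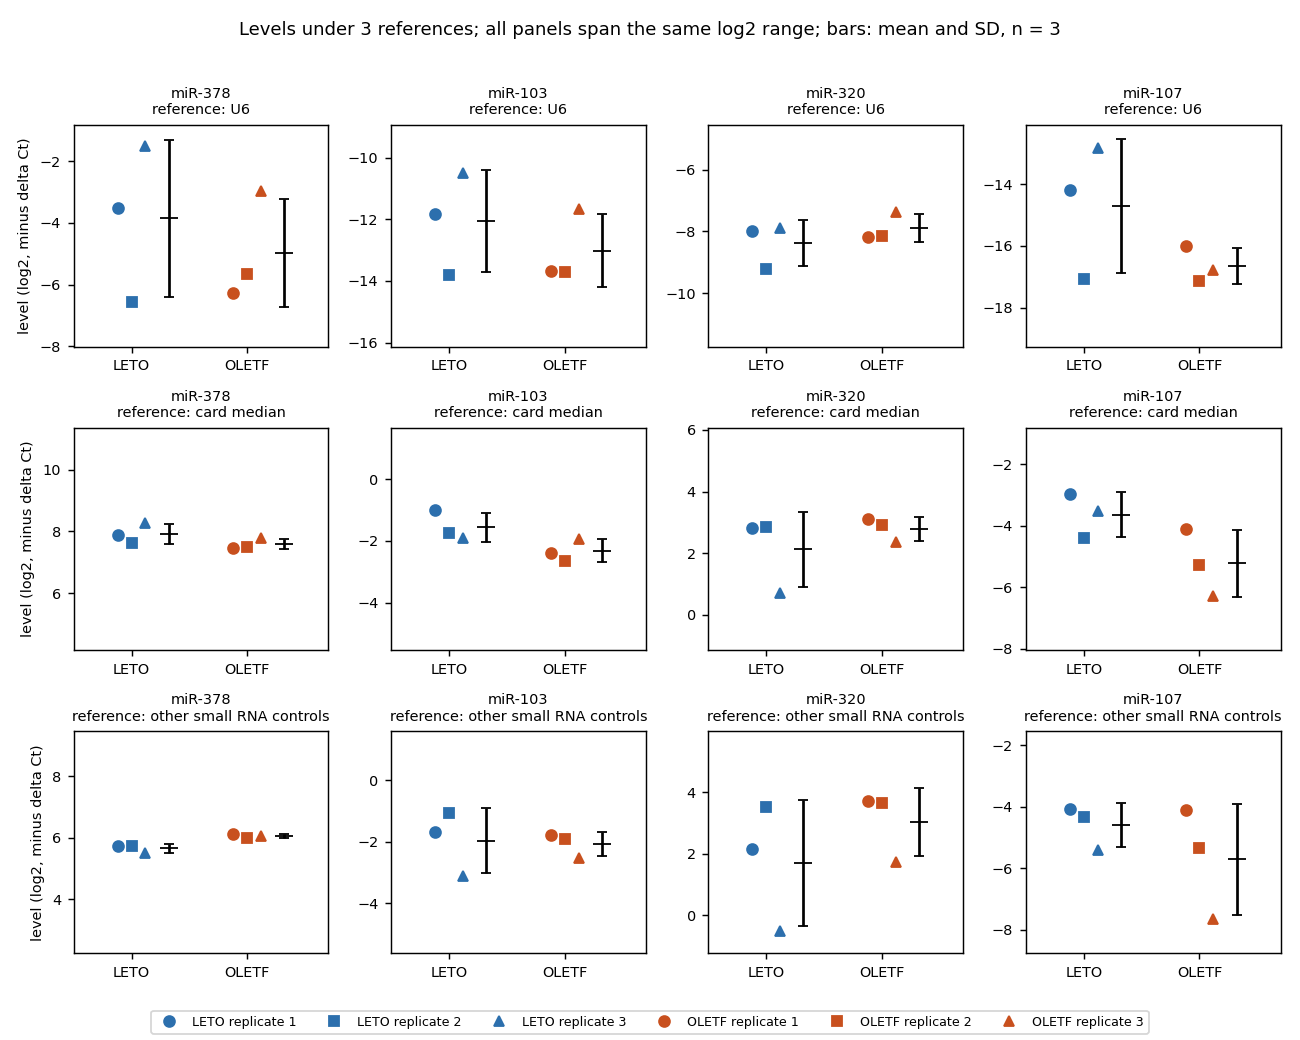
Level (y axis, log2, minus delta Ct) of miR-378, miR-103, miR-320 and miR-107 in 3 LETO (blue) and 3 OLETF (orange) hearts, one row of panels for each reference (U6, card median, other small RNA controls), with the mean and SD of each group in black and miR-107 at a Ct limit of 38. All panels have the same span: miR-378 spreads over 5.05 units with U6 and 0.794 with the card median, while miR-320 spreads over 1.85 and 2.41.

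miR-103 kept its direction under every reference tried, though not its size. With the other small RNA controls the difference was only -0.115 (SE 0.642), with OLETF lower in 6 of 9 pairs. Relative to U6, miR-103 lay at -11.83, -13.81 and -10.51 in LETO and at -13.67, -13.72 and -11.66 in OLETF. The groups overlapped, and the means of -12.05 ± 1.66 and -13.01 ± 1.18 (SD, n = 3 each) differed by -0.97 (SE 1.38, 95% interval -3.67 to 1.74, limma adjusted p = 0.997). Relative to the card median it lay at -1.01, -1.75 and -1.90 in LETO and at -2.38, -2.65 and -1.92 in OLETF. Here every OLETF heart was below every LETO heart, though OLETF replicate 3 and LETO replicate 3 were only 0.022 apart. Of the 162 assays measured in all samples, 9.26% lay lower in every OLETF sample with this reference. With a Ct limit of 38 the card median groups of miR-103 overlapped, with OLETF lower in 8 of 9 pairs and a difference of -0.61.

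The card median means of miR-103 were -1.55 ± 0.48 and -2.32 ± 0.37, a difference of -0.76 (SE 0.407, 95% interval -1.69 to 0.17, limma adjusted p = 0.632). The two-sided exact permutation p was 0.1, the smallest that 3 against 3 samples allow. Replicate 3 of each group entered the deposited ratios of card B in another way than replicates 1 and 2, while on card A, which holds miR-103, miR-107 and miR-320, all replicates entered alike. For miR-378, on card B, the difference with U6 was -0.94 within replicates 1 and 2 and -1.47 for replicate 3. With the card median these were -0.27 and -0.50. Values with replicate 3 set apart are given for the card A members too. Within replicates 1 and 2 the miR-103 difference was -1.14 with the card median, while the single samples of replicate 3 differed by -0.022. With U6 it was -0.87 within replicates 1 and 2 and -1.15 for replicate 3.

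miR-107 was compared at a Ct limit of 38, a choice made after its values were seen. Relative to U6 it lay at -14.20, -17.07 and -12.81 in LETO and at -16.00, -17.14 and -16.78 in OLETF, a difference of -1.95 (SE 1.45, 95% interval -4.79 to 0.89, limma adjusted p = 0.992). The groups overlapped through LETO replicate 2. Relative to the card median it lay at -2.97, -4.41 and -3.53 in LETO and at -4.11, -5.29 and -6.29 in OLETF. OLETF was lower in 8 of 9 pairs.

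That card median difference was -1.59 (SE 0.660, unadjusted 95% interval -3.13 to -0.048). Its limma adjusted p was 0.550 over 246 assays, of which 0% were called and 7.72% had an unadjusted p under 0.05. Within replicates 1 and 2 it was -1.01, and between the single samples of replicate 3 it was -2.75. With U6 these were -0.94 and -3.98. A Ct near 35 is close to the end of the assay, and precision there was not measured for miR-107, which had a single well per sample.

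Of the 3 tested members, miR-320 was the one that lay higher in OLETF with both U6 and the card median. Relative to U6 it was -7.99, -9.22 and -7.90 in LETO and -8.17, -8.16 and -7.38 in OLETF. The means of -8.37 ± 0.74 and -7.90 ± 0.46 (SD, n = 3 each) differed by 0.47 (SE 1.38, 95% interval -2.24 to 3.17, limma adjusted p = 0.997), and the groups overlapped. Although small, this difference was exceeded by only 11 of the other 192 tested assays. The place of miR-320 among the assays hardly changed with the reference: 12 assays exceeded it with the card median, and 12 with the other small RNA controls.

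Relative to the card median, miR-320 was 2.83, 2.83 and 0.707 in LETO and 3.11, 2.91 and 2.36 in OLETF. The difference of 0.67 (SE 0.608, 95% interval -0.72 to 2.06, limma adjusted p = 0.668) rested on the low value of LETO replicate 3. Without that sample it was -0.036. Within replicates 1 and 2 it was 0.18, and between the single samples of replicate 3 it was 1.65. With U6 these were 0.44 and 0.53. In LETO replicate 3 the Ct of miR-320 was 25.8, in the range of the other hearts, while the card A median there was the lowest of all samples. With quantile normalization, which gives all samples the same distribution of Ct, miR-320 differed by 0.54 (SE 0.387, limma adjusted p = 0.852). Of the 193 tested assays, 14 had a larger difference. Every OLETF value of miR-320 then lay above every LETO value. The share of such assays was not counted with that reference, so this separation is not read as a result about miR-320.

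**Figure D3:**
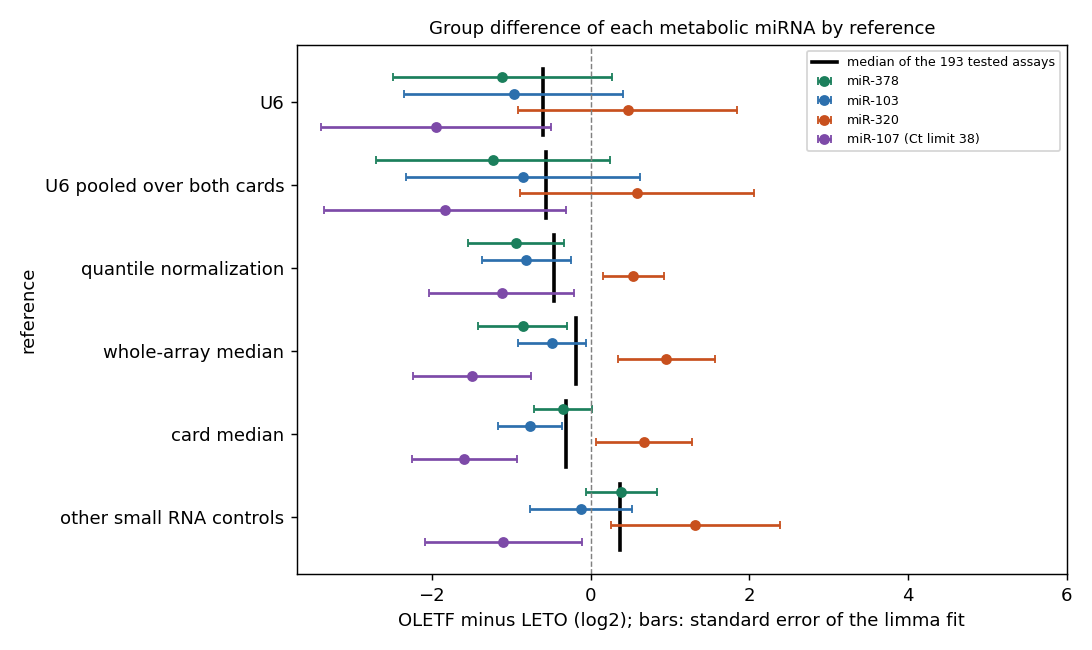
Difference of OLETF minus LETO (x axis, log2) for miR-378, miR-103, miR-320 and miR-107 under 6 references (y axis), with the SE of the limma fit, and in black the median difference of the 193 assays tested at a Ct limit of 35. miR-103 and miR-107 lie below 0 and miR-320 above 0 with all 6, while miR-378 lies below 0 with 5 of them and at 0.39 with the other small RNA controls, beside the median of 0.37.

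The members differed in which reference made them steady. Over the 6 hearts together, the SD of miR-378 was 2.05 log2 units with U6 and 0.299 with the card median. Among the 162 assays measured in all samples, 141 had a smaller SD than miR-378 with U6, but 15 with the card median. For miR-320 this was turned around. Its SD was 0.606 with U6, where 6 assays had a smaller one, and 0.894 with the card median, where 136 did. miR-103 lay in between, with an SD of 1.39 with U6 and 0.566 with the card median, against medians over all 162 assays of 1.47 and 0.574. These are descriptions of 6 samples, without a test.

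The assays most like each member were sought by the root mean square difference of the 6 card median levels, each profile centred on its own mean. For miR-378 they were miR-26a (0.107 log2 units), miR-664 (0.128) and miR-30a (0.152), against a median of 0.515 over all assays. For miR-103 they were let-7e (0.195), miR-29b (0.223) and miR-27b (0.248), with a median of 0.632. For miR-320 they were miR-574-3p (0.110), miR-146b (0.205) and miR-486 (0.216), with a median of 1.03. Profiles of one card share its reference, and with 6 samples some assays will lie close. miR-26a and miR-30a were read on card A and miR-378 on card B, so these pairs were compared across different card medians.

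One of these, miR-486, was among the red cell markers. It lay at -5.30 ± 0.93 in LETO and -5.03 ± 0.47 in OLETF relative to U6 (SD, n = 3 each), a difference of 0.27 (SE 1.38, limma adjusted p = 0.997). It was 1 of 2 red cell assays read here. The other, miR-451, a miRNA of erythroid cells, reached a Ct of 33.7 in 1 LETO sample and was not measured in any other heart. The part of red cells in the values of miR-320 was not tested.

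Other miRNAs with known roles in metabolism were counted from 2 lists. In the lipid list, whose members act on cholesterol export, lipoproteins or fat storage, 15 of 23 assays were tested, and 0 passed in either direction (limma). With U6, 0 lay higher and 15 lower in OLETF (median difference -0.67), where 80.8% of all 193 tested assays lay lower (median -0.60). With the card median 1 lay higher and 14 lower (-0.47), against 67.4% lower over all assays (-0.31). With the whole-array median 6 lay higher and 9 lower, against 62.2% lower over all assays. With the other small RNA controls 13 lay higher and 2 lower, against 24.9% lower over all assays. The most abundant by Ct relative to U6 were miR-30c, which lowers lipoprotein assembly, and miR-145. Their differences were -0.33 and -0.85 with U6 (SE 1.38 each), and -0.13 and -0.64 with the card median. The smallest p-values with U6 belonged to miR-128a (-1.74, SE 1.54, from 2 LETO and 3 OLETF samples) and miR-34a (-1.31, SE 1.38), with a limma adjusted p of 0.997 for both.

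In the glucose and insulin list, 30 of 37 assays were tested and 0 passed (limma). With U6, 5 lay higher and 25 lower (median -0.49), with the card median 10 and 20 (-0.28), and with the other small RNA controls 23 and 7. The whole-array median put 15 on each side. The shares over all assays are those given for the lipid list, and the medians over all assays were -0.60 with U6 and -0.31 with the card median. Its most abundant members were miR-133a, known to lower the glucose transporter GLUT4 in heart muscle cells, and miR-126-3p of endothelium. They differed by -0.43 and -0.062 with U6 (SE 1.38 each) and by -0.22 and 0.14 with the card median. The smallest p-values belonged to miR-34a, which is in both lists, and miR-181a (-1.26 with U6, SE 1.38, limma adjusted p = 0.997). miR-34a differed by -1.11 with the card median (SE 0.497, limma adjusted p = 0.632) and miR-181a by -1.06 (SE 0.351, limma adjusted p = 0.608). In both lists, as for miR-378, the share of higher and lower members thus followed the reference.

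The authors' deposited table gives a ratio of OLETF over LETO of 0.512 for miR-103, 0.259 for miR-107 and 1.38 for miR-320. For miR-378 it gives 0.478 and 0.447 for its wells, although the deposited delta Ct of these wells is the same in all samples. Over all wells of card B other than U6, 194 of 380 deposited ratios were recovered within 0.001 log2 units from single wells, and 380 of 380 once the wells of an assay were averaged in replicate 3 of each group. These ratios rest on the U6 reference and carry no error.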

How the data were processed

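The values deposited by the authors were the Ct of each well, delta Ct and ratios. Per the labels' protocols, U6 was the endogenous control. The deposited delta Ct is a log2 quantity with the sign reversed, Ct minus the mean U6 Ct of the same block of 384 wells (recomputed within 3.75e-06 over 3504 values, with undetermined assays counted as 40). The deposited fold table holds 1 linear ratio per well, OLETF to LETO. Baseline and threshold settings are not given in the sources used here.

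Repeat wells were averaged where determined. Assays with a Ct under 35 in 2 or more samples per group were fitted with limma 3.58.1 (lmFit, eBayes, two-sided) in R 4.3.3. The code was also run on simulated data with independent noise. That run checks the code and not the precision reached with these data. Samples missing a value were left out of that assay's fit. Groups and replicate numbers came from the sample titles, and the labels do not say that the samples are separate litters or days. The p-values therefore reach no further than the spread between these 6 samples. With U6, limma drew that spread from all assays and not from the single assay. The number of samples and the single wells of card A limit precision. Members, lists and the card median reference were chosen with earlier results of these data known. Every assay of the named miRNAs is reported. From each list the 2 most abundant and the 2 with the smallest p with U6 were named, and for each member measured in all samples the 3 assays most like it. Same-numbered samples did not deviate together throughout (correlations -0.088, 0.23 and 0.62), so they were not taken as pairs.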

Additional observations from a re-analysis of the deposited data

How the results depend on the processing

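Relative to U6, the count of assays at adjusted p under 0.05 (limma) was 0, and it became 1 under the replicate block and 1 with replicate 3 as a batch (miR-466d-3p both times, named after its values were seen), and 30 with array weights, all lower in OLETF. miR-378 was the one member among these 30 of 193 tested assays, at -2.15 (limma adjusted p = 0.0227). In that fit the median difference over all assays was -0.97, and 89.1% of them lay lower in OLETF. The weights favoured LETO replicate 1 (3.02) over LETO replicates 2 and 3 (0.329 and 0.237). They also favoured OLETF replicates 1 and 2 (3.25 and 3.70) over OLETF replicate 3 (0.354). With the card median the count stayed at 0 in all 17 alternatives. The replicate block changed no call of a member, and left its differences as they were (miR-378 -1.11, miR-103 -0.97 and miR-320 0.47 with U6). miR-103 and miR-107 kept their direction in every alternative run. miR-378 took the other sign relative to U6 with the other small RNA controls (0.39) and without LETO replicate 3 (0.063), and relative to the card median with a Ct limit of 38 (0.18) or none (0.30). miR-320 took the other sign with array weights relative to U6 (-0.029) and without LETO replicate 3 relative to the card median (-0.036). The cause was not tested. With 1 sample left out, miR-378 ran from -2.46 to 0.063 with U6, lowest without LETO replicate 2, and miR-320 from -0.036 to 1.03 with the card median. miR-107 was measured in 1 sample with a Ct limit of 32 and in 6 with 38 or none, and miR-802 in 0 with a limit of 32 and in 2 with 38 or none. At the limit of 32, miR-107 could not be fitted. The limit of 38 for miR-107 and its alternatives were chosen after seeing the data.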

Other observations

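The passenger arms of 2 of these miRNA genes were read on card B and lie outside the comparisons above. They were named after their values were seen. miR-378*, the other arm of the miR-378 hairpin, had a Ct of 30.2, 32.9 and 26.9 in LETO and 32.5, 30.4 and 28.5 in OLETF. Its direction turned with the reference: it differed by 0.28 with the card median (SE 0.864, limma adjusted p = 0.870) and by -0.48 with U6 (SE 1.38, limma adjusted p = 0.997), with overlapping groups in both. Relative to the card median its LETO values spread from -2.67 to 0.845, against 7.62 to 8.27 for miR-378. miR-33*, the other arm of the miR-33 hairpin, which lies within Srebf2 in the RefSeq table, was measured in all 6 samples, at 32.5, 32.7 and 29.8 in LETO and 33.0, 33.7 and 31.9 in OLETF. It differed by -1.21 with U6 (SE 1.38, limma adjusted p = 0.997) and by -0.45 with the card median (SE 0.518, limma adjusted p = 0.724). It was lower in 6 of 9 pairs of samples with either of these references. With the other small RNA controls it differed by 0.29, lower in 4 of 9 pairs, and with the card median at a Ct limit of 38 by 0.076, lower in 3 of 9 pairs. With the whole-array median miR-33* differed by -0.96 (SE 0.433, limma adjusted p = 0.481). Quantile normalization gave -1.26 (SE 0.666, limma adjusted p = 0.852). In these fits miR-33* was lower in 9 of 9 pairs. The share of such assays was not counted, so this is not read as a result about miR-33*. At a Ct limit of 38 it was lower in 9 of 9 pairs with the whole-array median. With quantile normalization at that limit the groups overlapped, with OLETF lower in 7 of 9 pairs and a difference of -0.90.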
